A study of Mus musculus with 11 samples.

Results

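The adrenaline-forming enzyme gene Pnmt was examined in fluorescent cells sorted from fetal mouse adrenal glands, together with 6 further genes that make, store or take up catecholamines. These 7 genes were chosen by their role: the synthesis enzymes Th, Ddc, Dbh and Pnmt, the vesicular transporters Slc18a1 and Slc18a2, and the noradrenaline transporter Slc6a2. All 7 were found on the array, out of 17016 genes with a symbol, and 9 probes measured them. Adrenal glands of mouse embryos aged E17.5-18.5 were dissociated, cells with green fluorescent protein were sorted out, and 1 ng of RNA from each mouse was amplified linearly and hybridised to an array of its own. The groups were 7 wild-type mice, Star+/+, and 4 knockout mice, Star-/-, which lack the protein that delivers cholesterol to the mitochondrial enzyme that starts steroid synthesis. Cells of both groups were sorted on the same reporter, whose promoter the sources used here do not name. The labels call the cells adrenocortical, and the sort was by the reporter alone.

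The mice were spread over 3 slides, unevenly by genotype and labelled sex. Wild-type arrays 1 and 2 shared slide 1 with knockout arrays 1 and 2, all from males. Wild-type array 3, from a female, shared slide 2 with knockout arrays 3 and 4, from males. Wild-type arrays 4 to 7, of which 3 were from females, had slide 3 to themselves. Differences fitted with slide as a term therefore come from 7 arrays, 4 knockout and 3 wild-type, and slide 3 informs the spread alone. All knockout mice were male, so among all 11 arrays genotype and sex are partly confounded.

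Catecholamines are made from tyrosine in a chain of enzymatic steps. Tyrosine hydroxylase (Th) forms dopa and sets the rate of the chain, aromatic amino acid decarboxylase (Ddc) forms dopamine, dopamine beta-hydroxylase (Dbh) forms noradrenaline inside secretory vesicles, and phenylethanolamine N-methyltransferase (Pnmt) turns noradrenaline into adrenaline. In the adrenal gland these steps belong to chromaffin cells of the medulla, which are of neural crest origin and lie beside the steroid-producing cortex. Glucocorticoid from the cortex is a known inducer of Pnmt, so Pnmt marks the adrenaline-making chromaffin cells, while Th, Ddc and Dbh are shared with noradrenaline-making cells and sympathetic neurons.

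Levels below are log2 processed signals minus the 75th percentile of the same array, so a difference of 1 is a doubling. Each level belongs to its own probe and is not compared with that of another gene. The 75th percentile of the signal ran from 114.6 in wild-type array 3 to 705.5 in knockout array 1, and between 19071 and 26416 of 41174 probes were well above background. Between 7 and 8 of 8 cortex markers on the array, which include Nr5a1 and Cyp11a1, were well above background on every array. So were between 14 and 18 of 20 chromaffin markers on wild-type arrays, and between 12 and 18 on knockout arrays. Transcripts of medullary cells were thus measured in cells labelled adrenocortical. Star itself had a level of 5.75 ± 1.82 in wild-type arrays (SD, n = 7) and 2.37 ± 0.73 in knockout arrays (SD, n = 4), a fitted difference of −4.70 ± 0.93 (SE; limma adjusted p = 0.0565), and the genotypes overlapped, with a wild-type minimum of 3.21 and a knockout maximum of 3.27. Its second, dimmer probe differed by −5.38 ± 0.91 (limma adjusted p = 0.0367 with each probe tested separately), without overlap. Both Star probes stayed well above background on all 4 knockout arrays. Wild-type arrays 5 to 7, all on slide 3, stood apart from the other 4 wild-type arrays. The log2 of the summed level of chromaffin markers was 10.8 to 11.2 there and 7.24 to 8.97 in wild-type arrays 1 to 4, that of sympathetic neuroblast markers 6.17 to 7.82 against 2.66 to 3.75, and that of cortex markers 6.87 to 7.87 against 8.98 to 10.42.

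Pnmt was the member with the widest gap between genotypes. Its level in the 4 knockout arrays was −4.16, −3.62, −4.00 and −3.44. In the wild-type arrays it was 2.22 and 4.90 on slide 1, −1.04 on slide 2, and 0.090, 5.00, 5.34 and 5.24 on slide 3. All knockout levels lay below all wild-type levels, and the knockout arrays spanned 0.73 while the wild-type arrays spanned 6.38. Wild-type arrays 3 and 4 were the low ones of their genotype. In processed signal, Pnmt read between 17.6 and 44.3 in knockout arrays, where the dimmest probes well above background read between 13.4 and 20.5, and between 55.7 and 13839.3 in wild-type arrays. The probe was well above background on all 11 arrays.

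**Figure D1:**
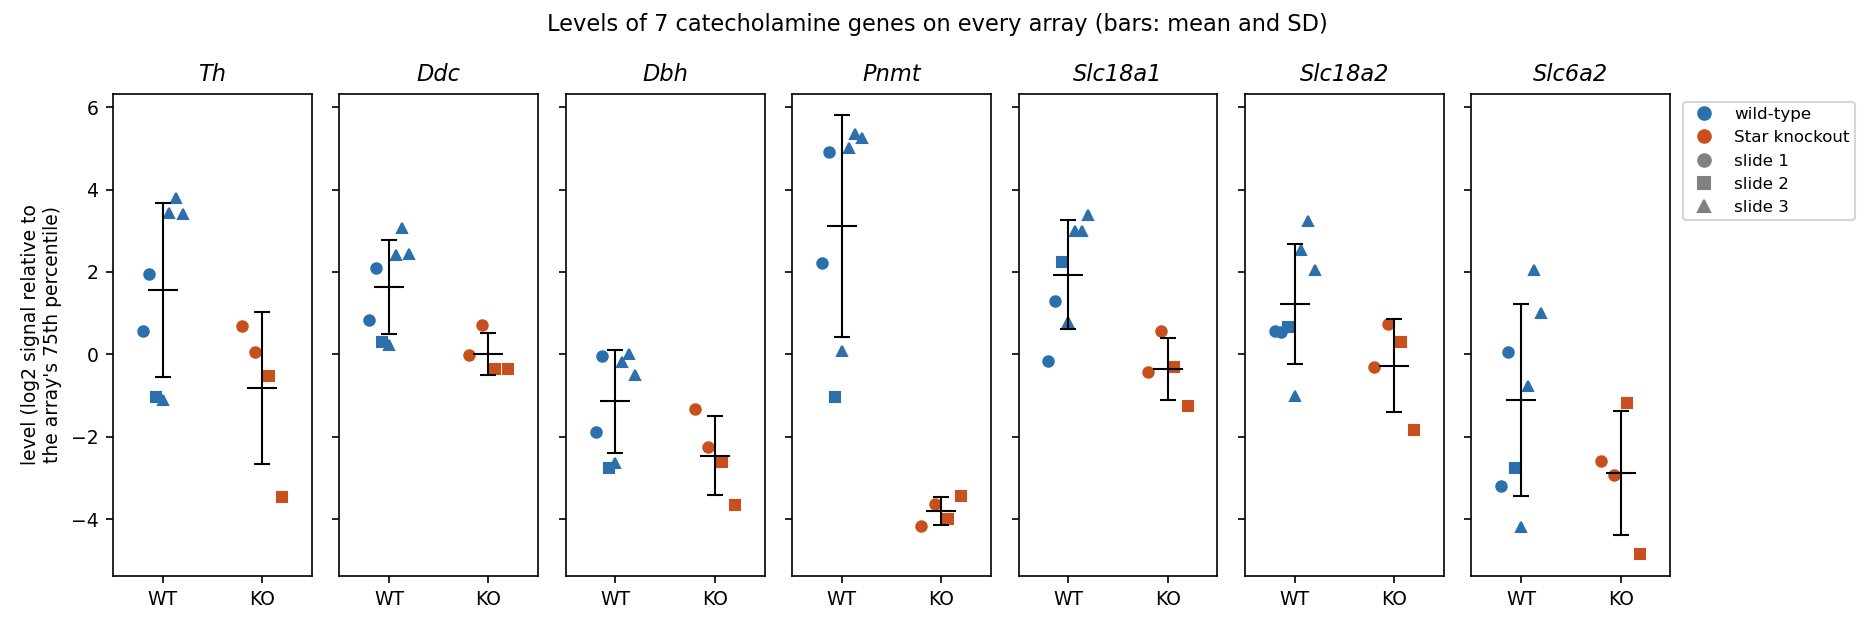
Level of each of the 7 genes (log2 signal relative to the array's 75th percentile) on every array, with wild-type (WT, n = 7) and Star knockout (KO, n = 4) side by side, marker shapes for slides, and bars for the mean and SD. Pnmt is the panel without overlap: its knockout arrays sit between −4.16 and −3.44 and its wild-type arrays between −1.04 and 5.34.

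The fitted difference of Pnmt, knockout minus wild-type, was −5.54 ± 1.44 (SE; 95% confidence interval −8.76 to −2.33), which is 46.6-fold lower. It was −7.45 within slide 1 and −2.68 within slide 2. Only 6 of 21103 genes and unnamed probes tested had a more negative fitted difference. The unadjusted p was 0.00331 and the limma p adjusted over all genes tested was 0.107, so Pnmt did not pass the threshold of 0.05. Wild-type arrays decided much of the size. Without wild-type array 2 the difference was −4.40, and without wild-type array 3, where it rests on slide 1 alone, it was −7.45. Leaving out wild-type array 4, which lies on slide 3 and enters only the spread, left the difference unchanged and brought the adjusted p to 0.0327. Without slide 3 altogether, which drops wild-type arrays 4 to 7, the limma adjusted p was 0.0499.

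The other 3 enzyme genes of the chain differed far less between genotypes, and their values overlapped. Th, at the start of the chain, had levels of 0.70, 0.050, −0.52 and −3.47 in knockout arrays 1 to 4. Its wild-type levels were 0.56 and 1.94 on slide 1, −1.03 on slide 2, and −1.11, 3.43, 3.78 and 3.41 on slide 3. Knockout arrays 1 to 3 thus lay inside the wild-type range, and knockout array 4 lay below it. The Th probe is printed 10 times on each array, and its spots had an SD of 0.021 to 0.12 on the log2 scale on 10 arrays. On knockout array 4 the SD was 0.49, and 6 of the 10 spots were well above background. The fitted difference of Th was −0.91 ± 1.18 (95% confidence interval −3.56 to 1.74; limma adjusted p = 0.711).

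Ddc, the decarboxylase gene, had knockout levels of −0.013, 0.72, −0.36 and −0.35. The wild-type levels ran from 0.24 through a median of 2.11 to 3.07, so only knockout array 2 reached into the wild-type range. Its difference was −0.94 ± 0.65 (95% confidence interval −2.39 to 0.52; limma adjusted p = 0.463). A second, dimmer Ddc probe, not well above background on wild-type array 3 and knockout array 4, differed by −0.40 ± 0.59. Dbh had knockout levels of −1.33, −2.25, −2.61 and −3.64 against wild-type levels from −2.76 through −0.50 to 0.022. Knockout array 4 alone lay below the wild-type range of Dbh. The difference was −0.64 ± 0.72 (95% confidence interval −2.24 to 0.96; limma adjusted p = 0.660).

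The vesicular transporters load catecholamines into secretory granules, Slc18a1 being the form typical of endocrine cells and Slc18a2 that of neurons. Slc18a1 had knockout levels of −0.43, 0.57, −0.31 and −1.25 and wild-type levels from −0.16 through 2.24 to 3.37. Its fitted difference of −1.51 ± 0.78 (limma adjusted p = 0.334) was −0.50 within slide 1 and −3.02 within slide 2. On slide 2 the comparison rests on wild-type array 3, where Slc18a1 was at 2.24 while Pnmt, Th, Dbh and Ddc were at or near their lowest wild-type levels. Slc18a2 had knockout levels of −0.31, 0.74, 0.31 and −1.84 and wild-type levels from −1.01 through 0.68 to 3.23, a difference of −0.78 ± 0.96 (limma adjusted p = 0.691). Its other probe differed by −0.34 ± 0.46.

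Slc6a2, which takes noradrenaline back into the cell, varied most among knockout arrays after Th. Its levels there were −2.59, −2.93, −1.17 and −4.83, the last not well above background. The wild-type levels ran from −4.18 through −0.77 to 2.05, and the fitted difference was −0.81 ± 1.48 (95% confidence interval −4.13 to 2.50; limma adjusted p = 0.802). Without wild-type array 2 its sign turned, to 0.096 ± 1.61.

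All 7 members passed the filter on dim probes, 6 of them being well above background on all 11 arrays. Of the 7, 0 passed an adjusted p of 0.05 in limma, where 0.829% of all genes tested did in either direction and 0.227% did with a lower level in knockout arrays, and Pnmt alone had an unadjusted p under 0.05, which is 1 of 7 against 2113 of 21103 genes tested (10%) with a lower level in knockout arrays. Pnmt was also the 1 member of 7 whose genotypes did not overlap in this direction over all 11 arrays, against 3.19% of genes tested. All 7 had a negative difference within slide 1 and within slide 2, as did 37.5% of genes tested. Their median difference was −0.91, and that of all genes tested was −0.16. The intervals of the 6 members other than Pnmt each include both 0 and a 2-fold fall, so these arrays do not show that those genes were unchanged.

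**Figure D2:**
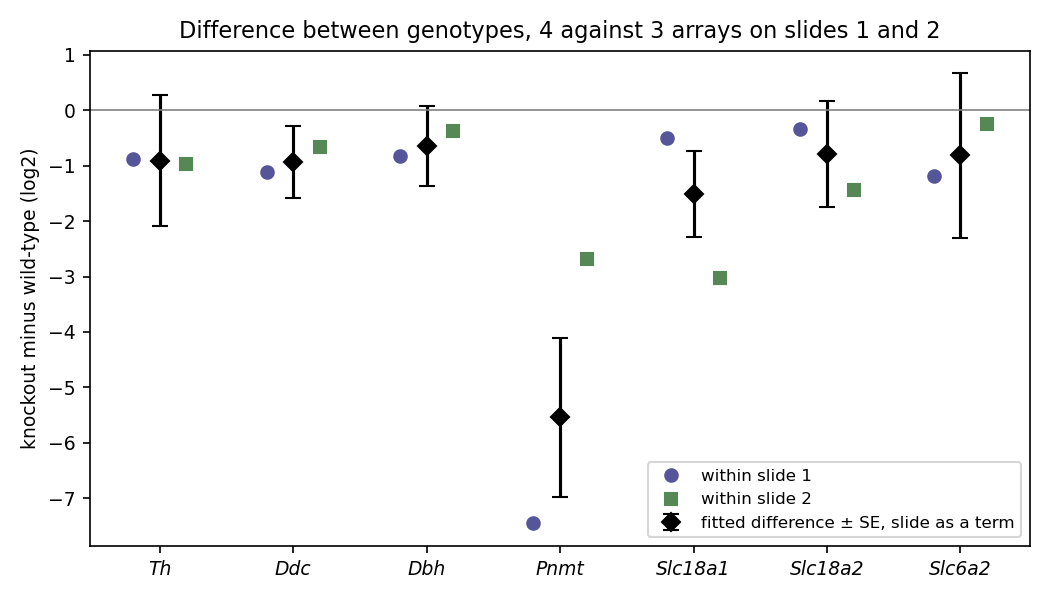
Difference between genotypes (knockout minus wild-type, log2) of each gene, with diamonds for the fit with slide as a term and bars for its SE, circles for slide 1 (2 against 2 arrays) and squares for slide 2 (2 against 1). Pnmt stands at −5.54, with −7.45 and −2.68 in the slides, and the other 6 between −1.51 and −0.64.

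Pnmt was then set against Th and Dbh on the same array, to ask whether it differed between genotypes beyond the other chromaffin enzymes. The difference of 2 probes on an array is free of that array's scaling. Its size reflects the probes, and only its change between arrays is read. Pnmt minus Th was 1.66 and 2.96 in the wild-type arrays of slide 1, −0.010 on slide 2, and 1.20, 1.57, 1.56 and 1.83 on slide 3. In knockout arrays 1 to 4 it was −4.86, −3.67, −3.49 and 0.032. Knockout arrays 1 to 3 lay below every wild-type array, and knockout array 4 lay level with wild-type array 3. On knockout array 4 both signals, 17.6 for Pnmt and 17.2 for Th, were close to the 13.4 of the dimmest probe well above background.

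The genotypes did not overlap in Pnmt minus Dbh. It was 4.11, 4.95, 1.72, 2.72, 5.17, 5.32 and 5.74 in wild-type arrays 1 to 7 and −2.83, −1.37, −1.40 and 0.20 in knockout arrays 1 to 4. The arrays nearest to each other were knockout array 4 and wild-type array 3, where Dbh was itself dim: it read 15.2 and 17.0, and the dimmest probes well above background read 13.4 and 12.7. With slide as a term, the difference between genotypes was −4.63 ± 1.61 for Pnmt minus Th and −4.90 ± 1.24 for Pnmt minus Dbh (SE, 4 against 3 arrays). The exact two-sided permutation test within slides gave p = 0.167 and p = 0.111, both 0.167 after Benjamini-Hochberg adjustment over these 2 tests. With 18 arrangements in all, that test cannot go below 0.0556.

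**Figure D3:**
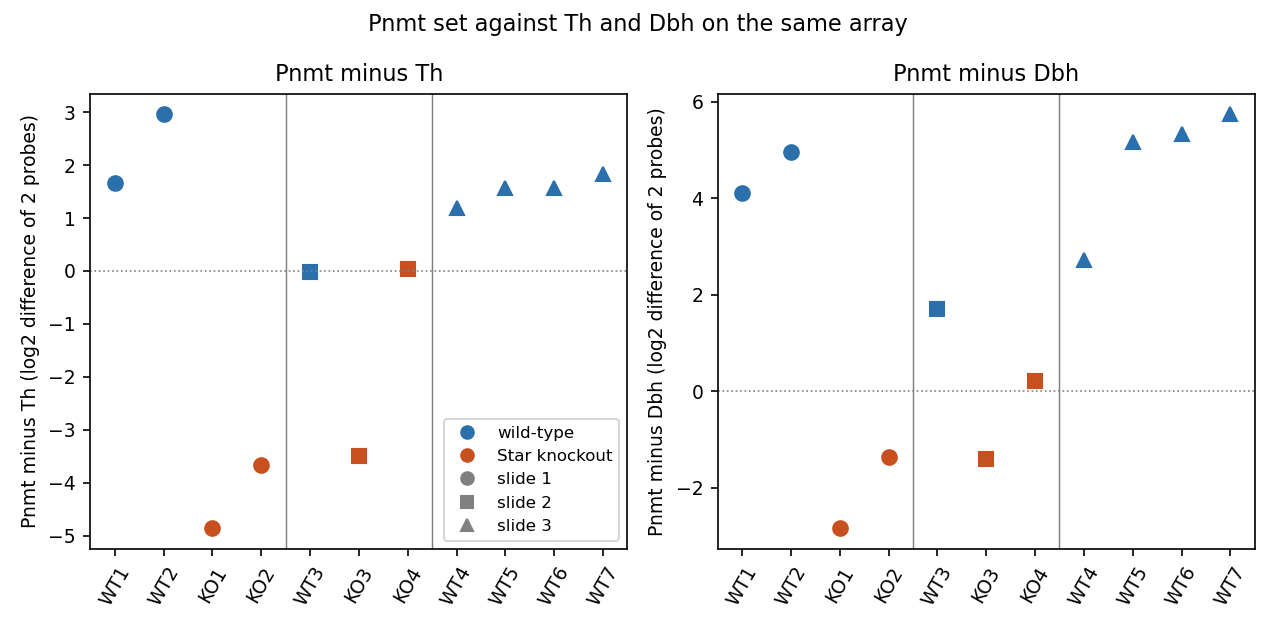
Pnmt minus Th (left) and Pnmt minus Dbh (right), each a log2 difference of 2 probes on 1 array, for wild-type (WT) and Star knockout (KO) arrays, with vertical lines between slides. Knockout arrays 1 to 3 lie far below the wild-type arrays in both panels, and knockout array 4, at 0.032 and 0.20, comes close to wild-type array 3, at −0.010 and 1.72.

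The gap was wide on slide 1 and narrow on slide 2. On slide 1, where all arrays were male, Pnmt minus Th differed by −6.58 between genotypes and Pnmt minus Dbh by −6.63. On slide 2 the values were −1.72 and −2.31. Against Ddc, Slc18a1, Slc18a2 and Slc6a2, Pnmt differed by −6.33, −6.95, −7.11 and −6.26 on slide 1 and by −2.02, 0.35, −1.24 and −2.43 on slide 2. The last of these includes knockout array 4, where Slc6a2 was not well above background, so it holds a value that is only a bound. Without knockout array 4 the differences against Th and Dbh were −5.54 and −5.46, and without wild-type array 3 they were those of slide 1.

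Knockout array 1 and wild-type array 1, both male and on slide 1, show the contrast. Their Th levels were 0.70 and 0.56, with Th signals of 1142.3 and 645.1. Their Dbh levels were −1.33 and −1.89. Pnmt read 39.4 in the knockout array and 2043.0 in the wild-type array. This pair was chosen after its values were seen.

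**Figure D4:**
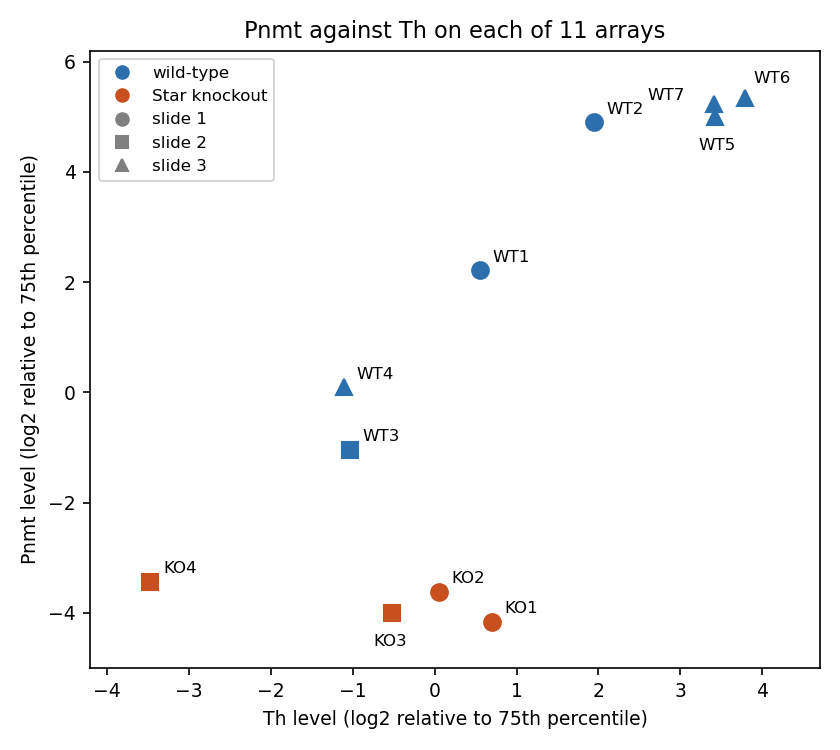
Pnmt level against Th level (both log2 relative to the array's 75th percentile) on the 7 wild-type (WT) and 4 knockout (KO) arrays, with marker shapes for slides. Wild-type arrays run along a rising line, while the knockout arrays stay between −4.16 and −3.44 for Pnmt over Th levels from −3.47 to 0.70. The knockout signals of Pnmt lay close to those of the dimmest probes well above background.

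Among the wild-type mice the levels of the enzyme genes were correlated, over arrays whose cell markers differed as well. Over the 7 wild-type arrays, Pnmt and Th had a Pearson r of 0.961 (exact permutation p = 0.00238; 0.0194 adjusted over the 21 pairs of members) and a Spearman rho of 0.929 (exact permutation p = 0.00675; 0.0354 adjusted). Without wild-type arrays 3 and 4, the farthest from the median of Pnmt, r was 0.901. Pnmt had an r of 0.977 with Dbh and of 0.955 with Ddc, and 0.953 and 0.948 without those arrays. With the vesicular transporters it was lower, at 0.484 for Slc18a1 and 0.729 for Slc18a2. All 21 pairs had a positive r, of which 13 passed an adjusted p of 0.05 by Pearson and 4 by Spearman in exact permutation tests. Slides hold at most 4 wild-type arrays, so no value can be given within a slide, and all levels of an array share its scaling. Wild-type arrays 5 to 7, with the high chromaffin and neuroblast and low cortex markers given above, hold the 3 highest levels of Pnmt and of Th. Without them 4 arrays are left, too few for a correlation, and the part of these markers in the correlations was not tested. In the 4 knockout arrays Th spanned 4.16 and Dbh 2.31 on the log2 scale while Pnmt spanned 0.73. Pnmt read only 17.6 to 44.3 there, and the dimmest probes well above background read 13.4 to 20.5. So near the floor, a narrow span does not show whether Pnmt varied with Th or Dbh. In sorted cells of mixed kinds, fewer chromaffin cells and less RNA per chromaffin cell cannot be told apart.

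The genes whose pattern over all 11 arrays was most like that of Pnmt were Trim56 with a Pearson r of 0.946, the prohormone convertase gene Pcsk1 with 0.939, Fam107a with 0.938, the proline dehydrogenase gene Prodh with 0.932 and Selenoi with 0.925, of 13386 named genes compared. Ddc came seventh, and Dbh and Th were at ranks 145 and 174. For Th the nearest were Resp18 with 0.983, Caly with 0.968, Dbh with 0.958, the granin gene Chga with 0.955 and Dusp26 with 0.949, and Pnmt was at rank 342. These correlations describe the arrays and were not tested. Of these genes, Fam107a differed between genotypes by −2.41 ± 0.61 (limma adjusted p = 0.101) and Trim56 by −0.46 ± 0.38 (adjusted p = 0.536).

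Promoter sequences are shown for Th and Dbh because they are the genes against which Pnmt was read. They are the 250 bases before the transcription start from RefSeq, build GRCm38.p6, read in the direction of the gene. Th lies on the minus strand, and its window is chr7:142899996-142900245. The Dbh window, on the plus strand, is chr2:27165257-27165506. Capitals mark exact matches, on either strand, to GGGCGG (SP1), TGANTCA (AP-1) and TGACGTCA (the cyclic AMP response element), in that order in Th; Dbh has none of these.
Th: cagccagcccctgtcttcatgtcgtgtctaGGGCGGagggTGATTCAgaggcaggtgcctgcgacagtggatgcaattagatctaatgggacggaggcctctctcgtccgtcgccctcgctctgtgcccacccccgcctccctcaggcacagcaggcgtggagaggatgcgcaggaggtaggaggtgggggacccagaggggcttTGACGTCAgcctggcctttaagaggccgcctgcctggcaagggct
Dbh: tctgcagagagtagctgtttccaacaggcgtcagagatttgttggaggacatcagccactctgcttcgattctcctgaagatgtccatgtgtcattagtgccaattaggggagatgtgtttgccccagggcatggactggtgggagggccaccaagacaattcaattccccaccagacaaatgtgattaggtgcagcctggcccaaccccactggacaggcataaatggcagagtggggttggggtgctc

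The search covered the whole RefSeq window, which runs on past the start, for 4 members with an entry, Th, Dbh, Ddc and Slc18a2. The cyclic AMP response element TGACGTCA begins 45 bases before the start of Th and 4 bases before that of Slc18a2, and 1.79% of 32851 windows hold it. The glucocorticoid receptor motif AGAACA was matched in Slc18a2 alone of these members, and 19.0% of windows hold it. The EGR1 motifs GCGTGGGCG and GCGGGGGCG and the homeodomain motif TAATTA were matched in none of them. The SP1 motif GGGCGG was matched in Th and Slc18a2 and is held by 35.7% of windows, and the AP-1 motif TGANTCA in Th and in 1 of 2 Ddc windows, against 7.81% of windows. CANNTG, the E-box, was matched in Th, Dbh and Slc18a2 and is held by 72.3%. A match describes the letters in the window and is not a binding site.

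Among genes that supply the enzymes with cofactors, none passed the test. Th needs tetrahydrobiopterin, and Gch1, the first enzyme of its synthesis, had a difference of −1.16 ± 0.44 (limma adjusted p = 0.221). Cyb561, which returns electrons to ascorbate inside the granule for Dbh, was at −1.64 ± 0.81 (adjusted p = 0.314), the biopterin recycling gene Pcbd1 at −0.90 ± 0.47 (adjusted p = 0.340) and the copper pump gene Atp7a at −0.37 ± 0.39 (adjusted p = 0.641). Of 9 cofactor genes tested 8 had a negative difference, with a median of −0.42, and 0 passed (limma; 1 at an unadjusted p under 0.05, Gch1). Over all genes tested, 56.9% had a negative difference and 10% were lower at an unadjusted p under 0.05, so 1 of 9 is near the share of all genes. The log2 of their summed level was 4.99 to 6.85 in wild-type and 4.34 to 4.92 in knockout arrays. The ranges nearly touched, at wild-type array 1 and knockout array 2, both on slide 1. A sum gives most weight to the brightest genes, here Cyb561 with a wild-type mean of 4.44. Of single genes tested, 3.19% had every knockout array below every wild-type array.

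Genes of catecholamine breakdown and other uptake showed no common direction. Maoa, a monoamine oxidase gene, was at 1.07 ± 0.38 (limma adjusted p = 0.194). Akr1b3, an aldose reductase gene, was at −0.97 ± 0.45 (adjusted p = 0.282), and the aldehyde dehydrogenase gene Aldh2 at 1.97 ± 1.15 (adjusted p = 0.386), of which −0.16 within slide 1 and 5.16 within slide 2. Aldh2 was well above background on only 6 of 7 wild-type arrays, with a wild-type minimum of −4.58. Its slide 2 value rests on wild-type array 3 alone. Of 10 tested, 7 were negative, the median was −0.21 and 0 passed (limma; 1 at an unadjusted p under 0.05, Maoa). Over all genes tested, 3880 of 21103 had an unadjusted limma p under 0.05 in either direction.

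In the list of release and nerve input, Cacna1d was lower in knockout arrays. This gene encodes a pore subunit of an L-type calcium channel, and it differed by −2.78 ± 0.42 (limma adjusted p = 0.0268), with −2.11 within slide 1 and −3.79 within slide 2. Its levels were between −2.25 and 0.49 in wild-type arrays and between −4.42 and −2.99 in knockout arrays, without overlap. It was the 1 gene of 7 tested in that list to pass, and the median of the 7 was −0.14. Over all genes tested, 0.227% passed with a lower level in knockout arrays. Cacna1d was well above background on 7 wild-type and 4 knockout arrays. Its knockout range spanned that of Pnmt, −4.16 to −3.44, which lay close to the dimmest probes well above background. The difference of Cacna1d under other processing was not examined. Vamp2, of the vesicle fusion machinery, was at 1.52 ± 0.69 (adjusted p = 0.278), Adcyap1r1, the PACAP receptor gene, at 1.04 ± 0.84 (adjusted p = 0.533) and the alpha-2 adrenergic receptor gene Adra2a at 1.09 ± 1.12 (adjusted p = 0.628). Vamp2 and Adcyap1r1 were each well above background on only 6 of 7 wild-type arrays. Within slide 1 they were at −0.028 and 0.057, and within slide 2 at 3.84 and 2.51. The slide 2 values rest on wild-type array 3 alone. The nicotinic receptor genes Chrna3, Chrna5, Chrna7, Chrnb2 and Chrnb4 were among the 7 genes of the list that were too dim to be tested.

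Transcription factors known to act at the Pnmt or Th promoter did not move as one. Nr3c1, the glucocorticoid receptor gene, was at 1.59 ± 0.63 (limma adjusted p = 0.228), Tfap2a at −1.03 ± 0.43 (adjusted p = 0.244), Epas1, encoding HIF-2 alpha, at −0.85 ± 0.37 (adjusted p = 0.266) and Tfap2b at −0.87 ± 0.45 (adjusted p = 0.332). Epas1 was well above background on 2 wild-type and 2 knockout arrays, and Tfap2b on 4 wild-type and 2 knockout arrays. Of 11 tested, 7 were negative, the median was −0.42 and 0 passed (limma; 3 at an unadjusted p under 0.05, Nr3c1, Tfap2a and Epas1). Over all genes tested, 3880 of 21103 had an unadjusted limma p under 0.05 in either direction.

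Genes that glucocorticoid induces in many tissues went both ways. Fkbp5, a chaperone of steroid receptors, was at −1.92 ± 0.76 (limma adjusted p = 0.228), with −1.91 within slide 1 and −1.95 within slide 2. The cell cycle inhibitor gene Cdkn1c was at −1.40 ± 0.36 (adjusted p = 0.104). The kinase gene Sgk1 was at 1.05 ± 0.41 (adjusted p = 0.226), and the clock gene Per1 at 2.96 ± 1.08 (adjusted p = 0.204), of which 0.95 within slide 1 and 5.97 within slide 2. Per1 was well above background on only 6 of 7 wild-type arrays, with a wild-type minimum of −4.51. Its slide 2 value rests on wild-type array 3 alone. Of 9 tested, 3 were negative and 0 passed (limma; 4 at an unadjusted p under 0.05, 2 in each direction), and the median was 0.36. Over all genes tested, 3880 of 21103 had an unadjusted limma p under 0.05 in either direction.

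In the steroid synthesis list, after Star, Hsd3b1 was at −2.32 ± 0.78 (limma adjusted p = 0.175) and the mitochondrial electron carriers Fdxr and Fdx1 were at −1.53 ± 0.87 (adjusted p = 0.373) and −1.46 ± 0.94 (adjusted p = 0.437). Of 10 tested, 9 were negative, the median was −1.40 and 0 passed (limma; 2 at an unadjusted p under 0.05, Star and Hsd3b1). Over all genes tested, 56.9% had a negative difference and 2113 of 21103 were lower at an unadjusted limma p under 0.05. Between 8 and 10 of the 10 steroid genes were well above background on each array, in both genotypes.

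**Figure D5:**
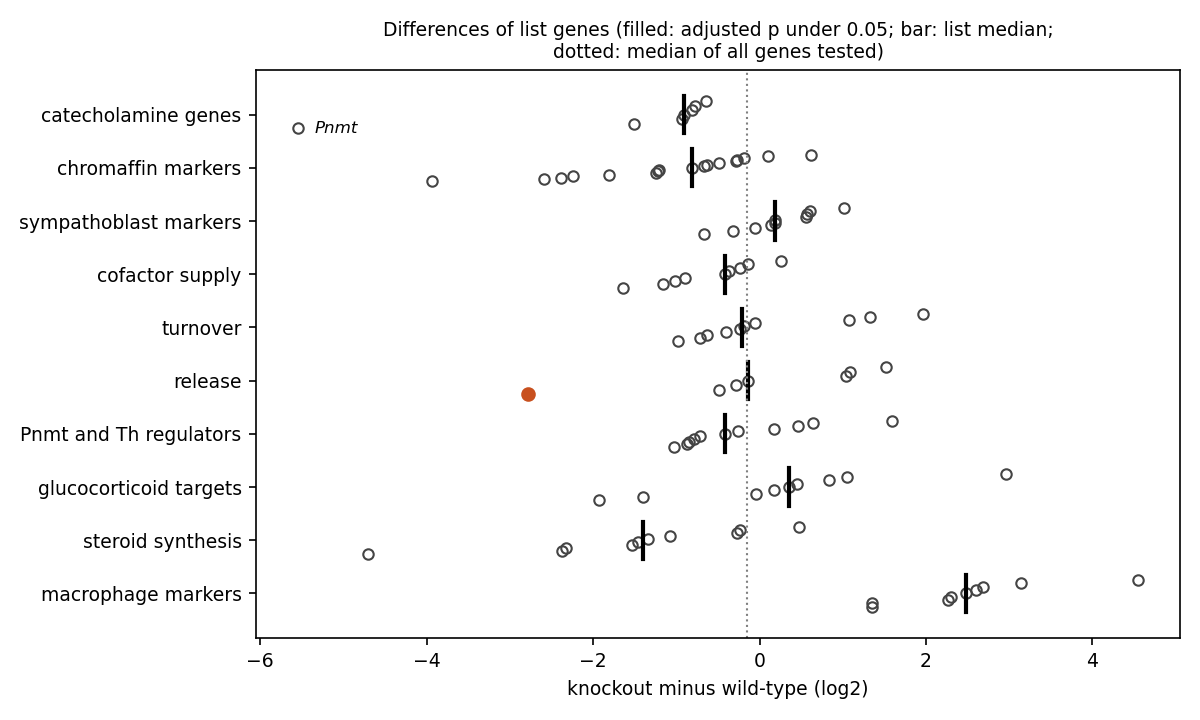
Fitted difference between genotypes (knockout minus wild-type, log2) of every tested gene in 10 lists, with black bars for list medians, filled circles for an adjusted p under 0.05 and a dotted line at the median of all genes tested, −0.16. Of the genes drawn, Pnmt, at −5.54, is the lowest point, Cacna1d in the release list is the filled one, and the macrophage markers all lie to the right of 0. The cortex markers are not drawn, and among them Nr0b1, at −5.58, is lower than Pnmt and also has an adjusted p under 0.05.

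Markers of chromaffin cells other than the members mostly had negative differences, and none passed the test. Pcsk1, which cleaves prohormones in granules, was at −3.93 ± 1.08 (limma adjusted p = 0.120), the granin genes Scg2 and Chga at −2.59 ± 0.91 (adjusted p = 0.190) and −2.38 ± 1.29 (adjusted p = 0.356), and the transcription factor gene Gata3 at −1.21 ± 0.69 (adjusted p = 0.375). Of 17 tested, 15 were negative and 0 passed (limma; 2 at an unadjusted p under 0.05, Pcsk1 and Scg2). Against the 56.9% and 10% of all genes, the share of negative differences was larger and that at an unadjusted p was near it. Their median was −0.82, with −0.38 within slide 1, where Pnmt was at −7.45, and −1.24 within slide 2, where Pnmt was at −2.68. Single markers on slide 1 ran from −3.87 for Pcsk1 and −2.97 for Scg2 up to 0.48. On slide 2, 5 of these markers had a more negative difference than Pnmt: Pcsk1 at −4.03, Chgb at −3.92, Npy at −3.32, Chga at −3.13 and Scg5 at −3.00. These slide 2 values rest on wild-type array 3 alone. Pcsk1, Scg2 and Scg5 were each well above background on only 3 of 4 knockout arrays, and Scg2 on 6 of 7 wild-type arrays. The differences of these genes thus hold values that are only bounds. The log2 of the summed level of the chromaffin markers ran from 7.24 to 11.2 in wild-type arrays. In knockout arrays it ran from 4.75, in knockout array 4, to 7.71, so knockout arrays 1 to 3 reached the lower end of the wild-type range.

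Among markers of other cells, those of macrophages did not overlap between genotypes in their summed level. All 9 tested had a positive difference, with a median of 2.49, and 0 passed over all genes (limma; 8 at an unadjusted p under 0.05, as 1767 of 21103 genes were in that direction). The log2 of their summed level ran from 5.35 to 8.33 in wild-type and from 9.19 to 10.6 in knockout arrays, without overlap. How many of all genes tested had every knockout array above every wild-type array was not counted, so this lack of overlap has no share to be read against. Detection was nearly the same in both genotypes, at 8 or 9 of the 9 markers per wild-type array and 9 per knockout array. The part of the macrophage difference in the values of the members was not tested. Markers of sympathetic neuroblasts had a median of 0.19 over 10 tested, Schwann cell precursors of 1.18 over 6, endothelial cells of 0.68 over 8, the capsule of 1.01 over 8 and erythroid cells of −1.02 over 6, and 0 genes of these lists passed (limma; 0, 1, 0, 1 and 1 at an unadjusted p under 0.05). Over all genes tested, 3880 of 21103 had an unadjusted limma p under 0.05 in either direction. The summed levels of these 5 lists overlapped between genotypes. The 8 cortex markers tested all had a negative fitted difference, with a median of −1.18, which was −1.54 within slide 1 and −0.18 within slide 2. On slide 2 Cyp11a1 was at 1.27, Nr5a1 at 0.11 and Scarb1 at 0.0070, and the summed cortex levels overlapped, from 6.87 to 10.42 in wild-type and from 7.10 to 8.89 in knockout arrays. Nr0b1, the nuclear receptor gene DAX1, was the 1 that passed, at −5.58 ± 0.89 (limma adjusted p = 0.0281). Of all genes tested, 56.9% had a negative difference, and 0.227% passed in limma with a lower level in knockout arrays.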

How the data were processed

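Per the file headers, the scanner output is spot intensity with background already subtracted by Agilent Feature Extraction, version 10.1.1.1 on slides 1 and 2 and 10.5.1.1 on slide 3; the submitters' processing notes name 10.5.1.1. Deposited flags mark outlier, saturated and well-above-background spots. The authors also deposited a table of log2 values, with scaling unstated, which matched probe-centred log2 signals within 0.01 for at least 99.8% of probes, with column medians between −0.166 and 0.901.

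Of 45018 spots, 43379 were not controls; 77 to 164 outlier spots per array were left out and 0 were saturated. Spots of a probe were averaged as log2 and the 75th percentile of each array subtracted. RefSeq accessions named 24375 of 41174 probes. GRCm38.p6 served for names and for the promoter windows only. A gene was its brightest probe, tested if well above background on at least 4 arrays. The comparison of genotypes used limma 3.58.1 (R 4.3.3; lmFit and eBayes; terms for genotype and slide; residual degrees of freedom, 7), and p-values were adjusted by Benjamini-Hochberg over every gene tested. Each array came from a different mouse, and their number limits the precision. The fit was tested on simulated data of 21056 genes, 200 of them altered: it recovered 2% at a 2-fold change, 24% at 4-fold, 42% at 8-fold and 86% at 32-fold, and wrongly called 6. The members and lists were chosen with earlier results of these data known. Genes named are the members, Star, up to 4 genes of smallest p in each list of pathway and chromaffin genes, and the 5 nearest in pattern to Pnmt and to Th; Nr0b1, Cyp11a1, Nr5a1, Scarb1, Chgb, Npy and Scg5 were named after their values were seen, and 1 gene that the rule names is not reported here. Exact permutation of the correlations used scipy 1.17.1. For Pnmt minus Th and Pnmt minus Dbh every arrangement was listed and fitted by least squares with numpy 2.4.6.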

Additional observations from a re-analysis of the deposited data

How the results depend on the processing

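Alternatives concerned slide, sex, background, scaling, the filter, probes, array weights, outlier spots, the series table and single arrays left out; normexp used median spot signals. The difference of Pnmt was negative in all 30, between −7.45 and −2.68. It passed in 6: −6.91 without a slide term (adjusted p = 0.0114), −6.29 with slide as a random block (0.0257), −5.54 with the slides of both genotypes alone (0.0499), −4.15 with normexp (0.0291), −7.43 with array weights (0.00177) and −5.54 without wild-type array 4 (0.0327). Without a slide term, and in part with a random block, the wild-type arrays of slide 3 enter the difference, so slide and genotype are mixed. Over all 30 the adjusted p ran from 0.00177 to 0.531. The difference of Pnmt was −6.67 with sex as a term (0.169). Leaving out 1 array gave −7.45 to −4.40.

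Th, Dbh, Ddc, Slc18a1 and Slc18a2 stayed negative and unpassed throughout; leaving out 1 array gave −1.40 to −0.41, −1.06 to −0.13, −1.21 to −0.57, −2.13 to −0.50 and −1.15 to −0.34. Slc6a2 ran from −1.53 to 0.096, the last without wild-type array 2. Pnmt minus Th and Pnmt minus Dbh stayed negative in all 17 alternatives each. Over all 11 arrays with no slide term they were −4.53 (exact p = 0.00606) and −5.59 (exact p = 0.00303, the smallest 330 arrangements can give). That test exchanged labels between slides, and slide 3 holds wild-type arrays alone. Its p therefore mixes slide with genotype and does not replace the test within slides. Leaving out 1 array gave −6.58 to −3.82 and −6.63 to −4.10.

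The 175 genes past the threshold became 604 without a slide term, 474 with a random block, 535 on the slides of both genotypes, 27 with sex, 78 with sex and without wild-type array 4, 630 with normexp, 93 with median scaling, 402 when a probe had to be above background everywhere and 1967 with array weights. They became 0 within slide 1 and 0 within slide 2 (limma; 3929 and 7622 at an unadjusted p under 0.05). Leaving out 1 array gave 10 to 561, and leaving out wild-type array 3 and knockout array 4 together, chosen after seeing the data, gave 4, with Pnmt at −7.45 (adjusted p = 0.531). Normexp moved the median of all genes from −0.16 to −0.29.

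Replicate numbers could not be shown to pair the arrays: same-numbered arrays had correlations of deviations between −0.0060 and 0.22, and not every array was closest to its own number. With the replicate number as a block, 186 genes passed, Pnmt was at −5.35 (adjusted p = 0.0588), Pnmt minus Th at −4.45 and Pnmt minus Dbh at −4.72 (exact p = 0.125 for both).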
